A study of Mus musculus with 24 samples.

Results

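The 10 surfactant and type 2 alveolar genes described here were Sftpa1, Sftpb, Sftpc, Sftpd, Abca3, Lamp3, Napsa, Lpcat1, Slc34a2 and Etv5, taken by symbol from the 23891 genes of the deposited expression table. All 10 were among the 17744 genes tested, those whose mean reached 1 CPM (a gene's reads scaled to the same library total in each sample). RNA-Seq was performed on the left lung lobe of 24 C57BL/6 mice. The labels number the samples within each group and do not name the animals, so p-values measure the spread between these samples. Adult saline mice (n = 5) were 20 wk old, and aged saline mice (n = 5) were 80 wk old. Aged HDM mice (n = 7), also 80 wk old, received house-dust mite extract (HDM) intranasally at 50 µg per dose, and aged HDM + Dex mice (n = 7) were also injected with the steroid dexamethasone (Dex) over the challenge period, with 4 mg/kg given at intervals of 72 h. Lungs were taken 24 h after the last challenge. There was no adult HDM group, so age and HDM were not crossed.

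Pulmonary surfactant is a film of phospholipid and protein that lowers the surface tension of the alveoli. It is made by alveolar type 2 cells, which pack it into lysosome-related organelles called lamellar bodies and release it into the airspace. The small hydrophobic proteins SP-B and SP-C (Sftpb, Sftpc) help to spread the lipid, whereas the collectins SP-A and SP-D (Sftpa1, Sftpd) bind carbohydrates on inhaled microbes and particles. Abca3 moves phospholipid into the lamellar body, Lpcat1 remodels phosphatidylcholine, Napsa is a protease that processes the SP-B precursor, and Lamp3 is a membrane protein of the lamellar body. Slc34a2 is the phosphate transporter of type 2 cells, and Etv5 is a transcription factor that maintains their identity. Club cells of the airway also express Sftpb, Sftpa1 and Sftpd. In whole lung, fewer type 2 cells and less RNA per type 2 cell cannot be told apart.

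The genes lie on 7 chromosomes of the mouse genome (GRCm38 coordinates), and 3 of the 4 secreted surfactant proteins are on chromosome 14. Sftpa1 (chr14:41131782-41136452, plus strand) and Sftpd (chr14:41172214-41185149, minus strand) are 35761 bp apart, with the collectin gene Mbl1 between them. Sftpc (chr14:70520949-70524081, minus strand) is 6603 bp from Lgi3, another gene of type 2 cells. Sftpb is at chr6:72304610-72314371 on the plus strand. RefSeq promoter windows of GRCm38.p6 were matched for 7 of the 10 genes. NKX2-1 is the homeodomain factor on which transcription of the surfactant protein genes depends, and its core motif CTCAAG, which reads as CTTGAG on the other strand, was searched in the 250 bases before each start. Sftpb and Sftpa1 held it, against 13.3% of 32851 mouse promoter windows. Their windows are shown, 5′ to 3′ on the plus strand with the motif in capitals, because they were the windows of the 7 that held it.
Sftpb promoter (chr6:72304360-72304609): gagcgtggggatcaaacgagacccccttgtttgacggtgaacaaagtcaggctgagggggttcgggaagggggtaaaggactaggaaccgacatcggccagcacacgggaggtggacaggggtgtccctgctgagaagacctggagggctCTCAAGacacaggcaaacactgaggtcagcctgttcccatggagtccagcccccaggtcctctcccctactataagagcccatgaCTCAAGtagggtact
Sftpa1 promoter (chr14:41131538-41131787): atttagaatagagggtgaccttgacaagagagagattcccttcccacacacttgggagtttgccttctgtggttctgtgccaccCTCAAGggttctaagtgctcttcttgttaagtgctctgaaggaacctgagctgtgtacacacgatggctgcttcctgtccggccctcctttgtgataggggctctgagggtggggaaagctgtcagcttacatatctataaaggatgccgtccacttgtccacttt
The motif began 100 and 15 bases before the start of Sftpb and 166 bases before that of Sftpa1. The FOXA core TGTTTAC, or GTAAACA when read on the other strand, was in 3.17% of all windows and in that of Lamp3. It was also in an Etv5 window (chr16:22439571-22439820), whereas another Etv5 window (chr16:22438369-22438618) did not hold it. The hexamer AGAACA, or TGTTCT when read on the other strand, is part of the site bound by the glucocorticoid receptor, and was in 16.1% of all windows and in that of Lamp3. The 3 searches used both strands, and the motifs found did not overlap each other.

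The libraries held an estimated 10.1 to 33.1 M reads on genes, and the fewest reads behind any value of the 10 genes were 322, for Napsa in adult saline replicate 1, a counting error of 5.58%. The coefficient of variation within groups ran from 11.1% (Lpcat1, aged saline) to 57.9% (Sftpb, aged saline). Between 9.92% and 42.0% of each library was 7SL RNA, an abundant cytoplasmic RNA, with a group median of 16.2% in adult saline, 10.9% in aged saline, 28.1% in aged HDM and 26.8% in aged HDM + Dex lungs. Because CPM shares a fixed total, each comparison is also given after median-of-ratios rescaling, and again relative to the mean of 10 other type 2 genes in the same lung (Cxcl15, Lgi3, Mlc1, Pla2g1b, S100g, Egfl6, Hc, Muc1, Ctsh and Nkx2-1). Fold changes are differences of log2(CPM + 1), tested with limma over all 17744 genes and adjusted by the Benjamini-Hochberg method. As deposited, the median log2 fold change of all tested genes was −0.23 for HDM vs. saline, and it was −0.01 after rescaling. Sex was read from Xist and Ddx3y: all 5 adult mice were female, and the aged groups held 3 males and 2 females (saline), 5 and 2 (HDM), and 3 and 4 (HDM + Dex). Aged and adult lungs thus differed in the mix of sexes as well as in age. In the HDM group, the 5 males were also the lungs with the higher 7SL shares.

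Per kilobase of exon, the order of levels was led by Sftpc. Its mean level over the 24 lungs was 3439 CPM per kb, and it was the highest of the 10 in every lung. Sftpa1 (677 CPM per kb) and Sftpb (509 CPM per kb) followed. Sftpa1 was above Sftpb in 18 of 24 lungs, and their order differed by group. Sftpb was the higher in 4 of 5 adult saline and 2 of 5 aged saline lungs. Sftpa1 was the higher in 7 of 7 HDM and 7 of 7 HDM + Dex lungs. Slc34a2 was next at 199 CPM per kb, and it was above Sftpd (169 CPM per kb) in 17 of 24 lungs. It was above Sftpd in 5 of 5 lungs of each saline group and 6 of 7 HDM + Dex lungs, whereas Sftpd was the higher in 6 of 7 HDM lungs. Lamp3 (96.0 CPM per kb) and Lpcat1 (46.3 CPM per kb) were each lower, and Etv5 was the lowest at 18.5 CPM per kb. Abca3 ranked between Lpcat1 and Napsa (23.1 CPM per kb), and it was above Napsa in 19 of 24 lungs and Napsa above Etv5 in 19 of 24. The 10 genes together made up 0.353% to 1.51% of CPM, with group medians of 1.06% in adult saline, 0.808% in aged saline and 0.817% in aged HDM lungs. In aged HDM + Dex lungs the share ran from 0.424% to 1.32%, a range that took in the other aged medians.

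**Figure D1:**
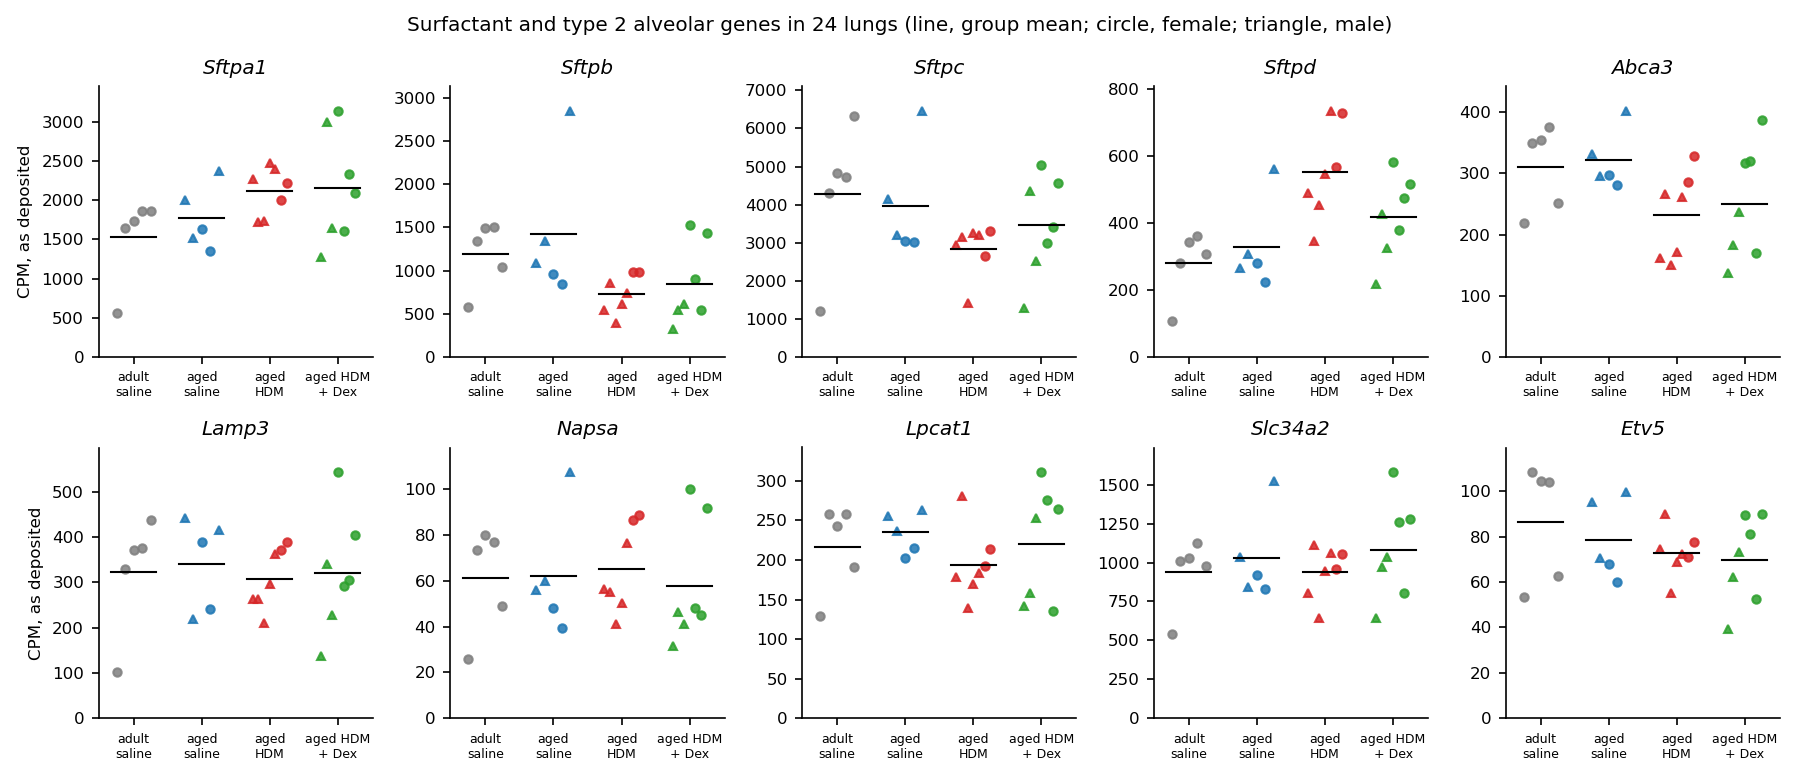
Expression of the 10 genes in each of the 24 lungs (y axis, CPM as deposited, from 0) by group (x axis). Circles are females and triangles males, read from Xist and Ddx3y, and the line is the group mean. Sftpd was 347 to 735 CPM in the HDM group and 223 to 307 CPM in 4 of the 5 aged saline lungs, and the fifth was at 560 CPM.

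The comparison of aged HDM with aged saline lungs asked which genes moved with the challenge. Sftpd, the collectin SP-D, was the 1 of 10 that passed the test (adjusted p under 0.05), against 25.3% of all genes tested (4.04% higher, 21.2% lower). In aged saline lungs, Sftpd was at 265, 307, 281, 223 and 560 CPM. In aged HDM lungs it ranged from 347 to 735 CPM, with a median of 545 CPM. The groups overlapped through the saline lung at 560 CPM, and the HDM lung was the higher in 31 of 35 pairs. Means were 327 ± 134 CPM (SD, n = 5) and 552 ± 141 CPM (SD, n = 7). Sftpd rose by 0.79 on the log2 scale (SE 0.24, limma adjusted p = 0.0201), 1.73-fold with a 95% confidence interval of 1.22 to 2.43. After rescaling, the log2 fold change was 1.04 (SE 0.21, limma adjusted p = 0.00198) and the HDM lung was higher in 34 of 35 pairs. Relative to the 10 other type 2 genes it was 1.02 (SE 0.19, limma adjusted p = 0.0011). Sftpd was again the 1 of 10 called on both scales, against 22.5% and 7.92% of all genes. As deposited, the call was lost without aged saline replicate 1, 3 or 4 (limma adjusted p = 0.0567, 0.0519 and 0.0612) and in males alone (log2 fold change 0.48, limma adjusted p = 0.191, beside 31.5% of all genes called) or females alone (1.35, limma adjusted p = 0.0831). With either rescaling it was kept without any 1 of the 12 lungs.

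Sftpb, the SP-B gene, which type 2 cells need for lamellar bodies, lay on the other side of zero. It was at 1091, 1341, 965, 849 and 2855 CPM in aged saline lungs. In aged HDM lungs it ranged from 393 to 987 CPM, with a median of 741 CPM. The HDM lungs were mostly the lower, being above the saline lung in 5 of 35 pairs, but the groups overlapped. The log2 fold change was −0.87 (SE 0.35, 95% confidence interval −1.59 to −0.15), and its limma adjusted p was 0.0677. It was −0.62 after rescaling (limma adjusted p = 0.129) and −0.64 relative to the other type 2 genes (limma adjusted p = 0.0771). The value rested in part on aged saline replicate 5, without which the log2 fold change was −0.58 (limma adjusted p = 0.223). With the 7SL share as a covariate it turned to 0.07 (limma adjusted p = 0.909), as did the lower values of Sftpc (0.08) and Abca3 (0.18) given below. The median of all genes tested also turned, from −0.23 to 0.07. In that fit Sftpd was at 1.22 (limma adjusted p = 0.0131). The 7SL share was itself higher in HDM lungs (median 28.1%) than in aged saline lungs (10.9%). In males alone Sftpb was at −1.40 (limma adjusted p = 0.00602, beside 31.5% of all genes called), and in females alone it was 0.12 (limma adjusted p = 0.927); the difference between the sexes was not tested, and the 7SL share moved with sex in the HDM group.

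The other secreted surfactant proteins did not pass the test. Sftpa1, which encodes SP-A, was at 2001, 1512, 1634, 1348 and 2376 CPM in aged saline lungs. In aged HDM lungs it ranged from 1726 to 2472 CPM, with a median of 2220 CPM, so that the groups overlapped. The log2 fold change was 0.27 (SE 0.21, limma adjusted p = 0.344) and, after rescaling, 0.53 (limma adjusted p = 0.0689). Relative to the 10 other type 2 genes, each HDM lung was above each saline lung for Sftpa1, a separation seen for 2.29% of all genes (0.800% higher), but the limma adjusted p of 0.147 missed the threshold. Sftpc, which encodes the SP-C precursor and is the classical marker of type 2 cells, was at 4149, 3192, 3039, 3023 and 6469 CPM in aged saline lungs. In HDM lungs it ranged from 1405 to 3302 CPM, with a median of 3141 CPM. The log2 fold change was −0.47 (SE 0.30, 95% confidence interval −1.08 to 0.15, limma adjusted p = 0.247).

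**Figure D2:**
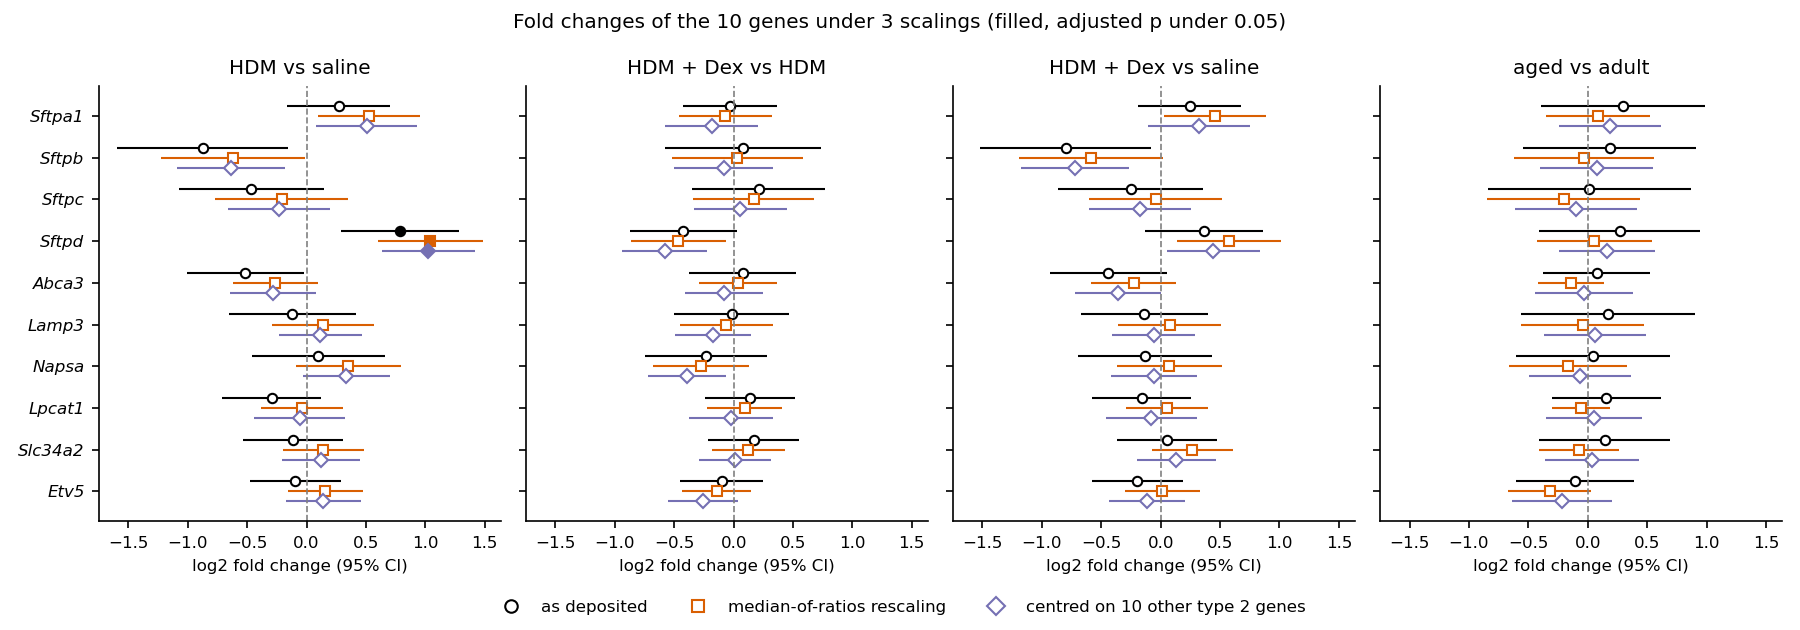
Log2 fold change (x axis, with 95% confidence interval) of each of the 10 genes (y axis) in the 4 comparisons, under 3 scalings given by colour and shape; filled symbols have an adjusted p under 0.05. Sftpd for HDM vs. saline is the single gene with filled symbols, at 0.79, 1.04 and 1.02.

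The other 6 genes, most of them of surfactant assembly and storage, did not pass the test in the same comparison, as deposited and over all lungs. Abca3, the phospholipid transporter, averaged 322 ± 48.8 CPM (SD, n = 5) in aged saline and 232 ± 70.4 CPM (SD, n = 7) in aged HDM lungs. Its log2 fold change was −0.52 (SE 0.24, limma adjusted p = 0.111), and −0.26 after rescaling. Abca3 was called in males alone (−0.80, limma adjusted p = 0.0164, beside 31.5% of all genes called). In females alone it was at 0.08 (limma adjusted p = 0.936). Abca3 was also called with sample quality weights (−0.58, limma adjusted p = 0.0208, beside 44.4% of all genes). The replicate block called it as well, beside 31.8% of all genes, though the replicate numbers did not pair the samples. Napsa was called with the 7SL share as a covariate (0.84, limma adjusted p = 0.0331, beside 8.85% of all genes). Lamp3 (−0.12), Napsa (0.10), Lpcat1 (−0.29), Slc34a2 (−0.11) and Etv5 (−0.09) had smaller log2 fold changes, with limma adjusted p between 0.282 and 0.809. Rescaling turned the sign of Lamp3, Slc34a2 and Etv5 to positive values (0.14, 0.14 and 0.16), so no direction is given for them. The 95% confidence intervals of these 5 genes lay between −0.71 and 0.66 on the log2 scale as deposited. Over all 10 genes the median log2 fold change was −0.12, beside −0.23 for all genes tested, and after rescaling 0.14 beside −0.01.

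The surfactant proteins of 1 lung shared its total, so ratios between them do not depend on the scaling. These ratios were chosen after the values were seen and are given without a test. The ratio of Sftpd to Sftpb CPM was 0.243, 0.229, 0.292, 0.263 and 0.196 in the aged saline lungs, and 0.185, 0.208, 0.229, 0.240 and 0.294 in the adult saline lungs. In aged HDM lungs it ranged from 0.403 to 1.16 with a median of 0.897, and in aged HDM + Dex lungs from 0.359 to 0.873 with a median of 0.527. All 14 challenged lungs were above all 10 saline lungs, in both sexes. In the HDM group the mean ratio was 0.869 in males and 0.657 in females, and in aged saline lungs it was 0.223 in males and 0.277 in females. The ratio of Sftpa1 to Sftpc was 0.367 to 0.538 in aged saline lungs and 0.550 to 1.23 in HDM lungs, again without overlap. It was 0.459 to 0.992 in HDM + Dex lungs, which overlapped the saline lungs. The share of all gene pairs whose ratio separates the groups was not computed. The ratios of Sftpa1 to Sftpb and of Sftpd to Sftpc also did not overlap between aged saline and HDM lungs. The ratios given next overlapped between those groups. The log2 ratio of Sftpb to Sftpc was −1.93 to −1.18 in aged saline and −2.43 to −1.42 in HDM lungs. That of Sftpb to Abca3 was 1.59 to 2.83 in aged saline and 1.39 to 1.82 in HDM lungs. The mean log2 ratio of Sftpd to the other collectin, Sftpa1, was −2.49 in aged saline, −1.97 in HDM and −2.37 in HDM + Dex lungs. These groups overlapped, with −2.92 to −2.08 in aged saline and −2.32 to −1.61 in HDM lungs. Of the 10 genes, Sftpd had the highest and Sftpb the lowest log2 fold change for HDM vs. saline.

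**Figure D3:**
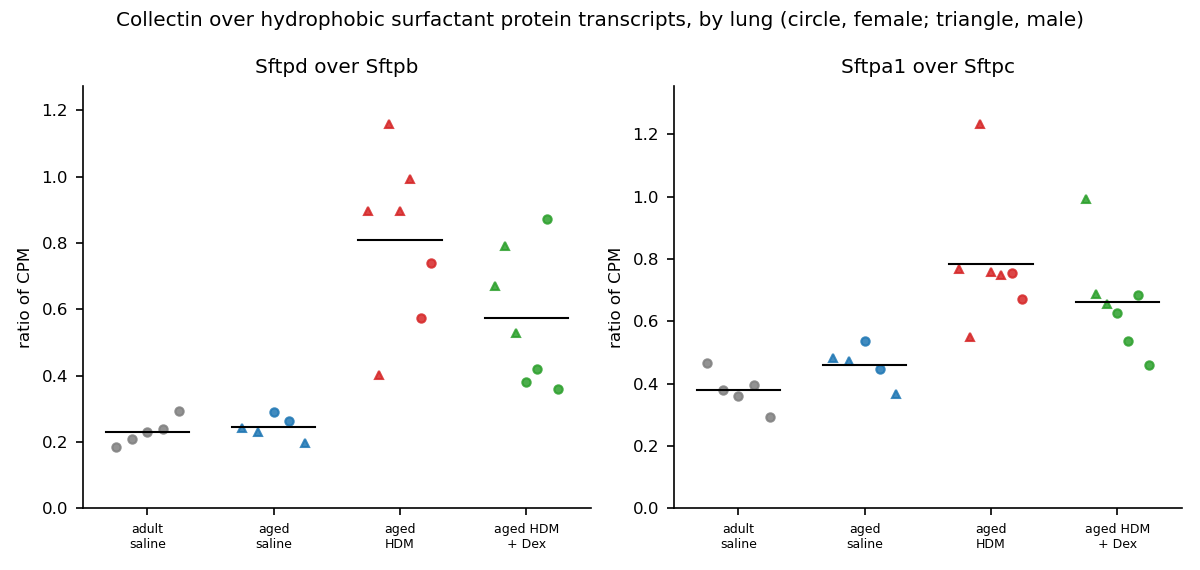
Ratio of Sftpd to Sftpb (left) and of Sftpa1 to Sftpc (right) CPM (y axes, from 0) in each lung, by group (x axis). Circles are females, triangles males and lines group means. For Sftpd over Sftpb, the saline lungs lie at 0.185 to 0.294 and the challenged lungs at 0.359 to 1.16.

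Markers of other epithelial cells moved in the same comparison. The counts stand beside 4.04% of all genes higher and 21.2% lower as deposited. After rescaling, 1930 of the 17744 genes were higher and 2057 lower. Relative to the other type 2 genes, 602 were higher and 804 lower. Of 10 club cell markers, 0 rose and 7 fell, and their summed level was 5744 to 8343 CPM in aged saline and 664 to 4019 CPM in aged HDM lungs. Among them, Scgb3a2 fell by 2.98 on the log2 scale (limma adjusted p = 0.000906) and Cyp2f2 had a log2 fold change of −2.90 (limma adjusted p = 0.00112). Club cells also express Sftpb, Sftpa1 and Sftpd, and their part in the values of these genes was not tested. All 10 ciliated cell markers fell as deposited, and 9 after rescaling. Of 14 alveolar type 1 markers, which mark the flat cells of gas exchange, 0 rose and 7 fell (after rescaling, 1 and 6), led by Rtkn2 (−0.98), Akap5 (−0.94) and Hopx (−0.83). Relative to the other type 2 genes 1 rose and 2 fell, and Hopx was no longer called (limma adjusted p = 0.0553). Of 10 markers of all epithelium, 0 rose and 5 fell (after rescaling 3 fell, and 2 relative to the other type 2 genes). All 8 heart muscle genes fell as well, from 623 to 1200 CPM in sum in aged saline to 30.5 to 501 CPM in HDM lungs. In mice, heart muscle cells surround the pulmonary veins. Of 10 alveolar macrophage markers, 2 rose and 0 fell (after rescaling 4 and 0), led by Chil3 (3.02) and Atp6v0d2 (1.53), and their summed level was 320 to 448 CPM in aged saline and 528 to 3437 CPM in HDM lungs. Of 9 leukocyte genes, 3 rose and 2 fell (after rescaling 5 and 1), of 8 endothelial genes 0 rose and 5 fell (after rescaling 0 and 2, and 0 relative to the other type 2 genes), and of 8 fibroblast genes 3 rose and 4 fell (after rescaling 3 and 2). The part of these cells in the results was not tested.

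**Figure D4:**
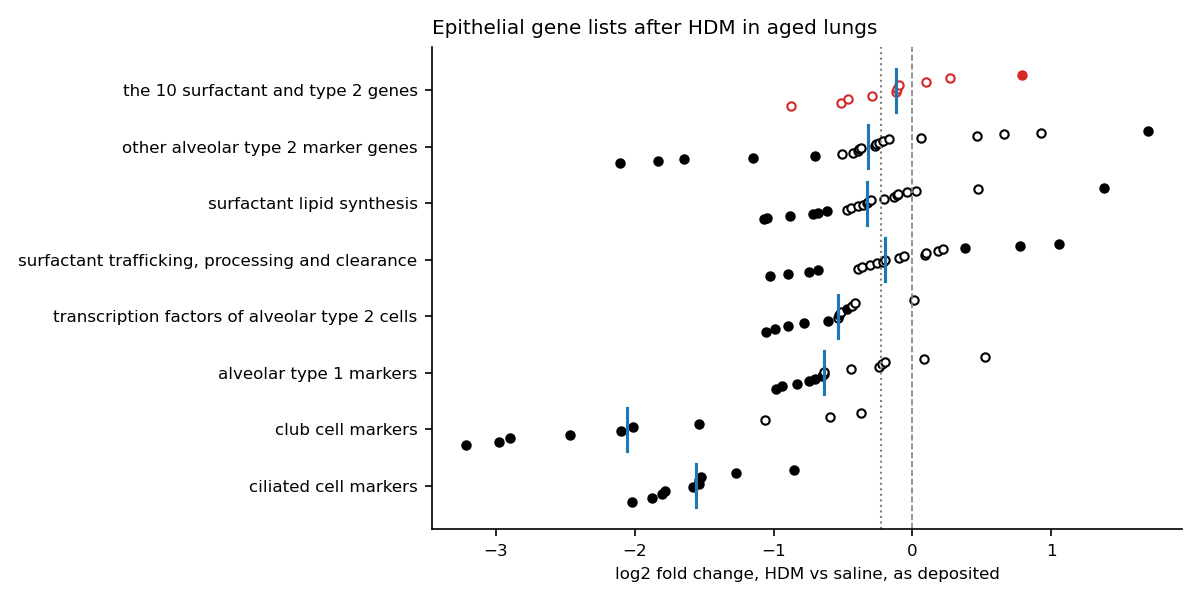
Log2 fold change for HDM vs. saline, as deposited (x axis), of each gene of 8 epithelial lists (y axis); filled points have an adjusted p under 0.05, blue lines are list medians, and the dotted grey line is the median of all genes tested, −0.23. The medians are −0.12 for the 10 surfactant and type 2 genes, −0.64 for type 1, −2.06 for club and −1.56 for ciliated cell markers.

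For the wider pathway, the counts stand beside 4.04% of all genes higher and 21.2% lower for HDM vs. saline. Counts after rescaling stand beside 1930 higher and 2057 lower of the 17744 genes. Those relative to the other type 2 genes stand beside 602 higher and 804 lower. List medians were −0.32 (other type 2 markers), −0.32 (lipid synthesis) and −0.20 (trafficking, processing and clearance), near the −0.23 of all genes. Of 20 other type 2 marker genes, 1 rose and 5 fell for HDM vs. saline (after rescaling 4 and 4). Chil1, a chitinase-like protein also made by macrophages, rose by 1.70 on the log2 scale, from 232 ± 57.2 CPM (SD, n = 5) to 753 ± 153 CPM (SD, n = 7, limma adjusted p = 9.07e-05). Bex2 (−2.11), Lyz1 (−1.84) and Acoxl (−1.65) fell. The 10 genes used for centring, all of which belong to these lists, held 0 that passed as deposited and 1 after rescaling. Of 21 genes of lipid synthesis, 1 rose and 6 fell (after rescaling 2 and 6, and 1 and 3 relative to the other type 2 genes). Chpt1 (−1.07) and Chka (−1.04), which act in the pathway from choline to phosphatidylcholine, and Lpin2 (−0.88), a phosphatidate phosphatase, fell, while Fabp5 (1.38), a fatty acid carrier also present in macrophages, rose. Of 19 genes of surfactant trafficking, processing and clearance, 3 rose and 4 fell (after rescaling 5 and 4). Relative to the other type 2 genes 2 rose and 2 fell, and Hps1 and Atp8a1 were no longer called (limma adjusted p = 0.112 and 0.0954). Csf2ra (1.06) and Csf2rb (0.78), the subunits of the GM-CSF receptor through which alveolar macrophages clear surfactant, rose, as did Hps1 (0.38), a gene of lysosome-related organelles. Prdx6 (−1.02), an antioxidant enzyme with phospholipase activity, Nedd4l (−0.90), a ubiquitin ligase, and Atp8a1 (−0.75), a phospholipid flippase, fell.

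Of 12 genes of regulators of type 2 cells, 0 rose and 7 fell as deposited. After rescaling 4 fell, and relative to the other type 2 genes 2 fell, with Cebpd no longer called (limma adjusted p = 0.0994). As deposited, 0 were higher. The 7 that fell as deposited were led by Klf5 (−1.05, limma adjusted p = 0.00514), Foxa1 (−0.99, limma adjusted p = 0.00207) and Cebpd (−0.90, limma adjusted p = 0.006). Of 13 tested genes of the transitional state between type 2 and type 1 cells, Lgals3 (1.79), Tnc (1.69) and Fn1 (1.17) rose and Cdkn1a (−0.65) fell, and the last was no longer called after rescaling. Lgals3 is also a macrophage gene, and Tnc and Fn1 are also fibroblast genes. Of 10 tested genes of activated type 2 cells, Saa3 (3.87), Ly6i (2.79) and Lcn2 (2.51), acute-phase and defence genes, rose, and Nfkbia (−0.57) fell as deposited but not after rescaling. Which cells of the whole lung held these transcripts was not tested. The 8 genes of the HDM response, such as Clca1 and Retnla, all rose.

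The comparison of aged HDM + Dex with aged HDM lungs asked what steroid changed under HDM. It called 0 of the 10 genes with limma, against 0.964% of all genes tested. The unadjusted p was under 0.05 for 0 of the 10 as deposited. It was under 0.05 for 1 after rescaling (Sftpd) and 2 relative to the other type 2 genes (Sftpd and Napsa). Of the 17744 genes tested, 2389, 3297 and 2084 were under 0.05 on these scales in turn. After adjustment, 0 of the 10 were called on any of the 3 scales. Of all genes, 2.85% were called after rescaling and 0.333% relative to the other type 2 genes. Sftpd ranged from 217 to 581 CPM in HDM + Dex lungs, with a median of 428 CPM, and so lay between the levels of the saline and HDM lungs with overlap on both sides. Its log2 fold change was −0.42 (SE 0.22, 95% confidence interval −0.88 to 0.03, limma adjusted p = 0.413), and −0.47 after rescaling (limma adjusted p = 0.194). The HDM + Dex lung was the lower in most pairs, being above the HDM lung in 12 of 49, and in 7 after rescaling. Relative to the other type 2 genes, Sftpd was at −0.58 (SE 0.17, limma adjusted p = 0.128) and above in 6 of 49 pairs, and Napsa was at −0.39 (SE 0.16, limma adjusted p = 0.323). Sftpb ranged from 324 to 1530 CPM, with a median of 614 CPM, and its log2 fold change was 0.08 (limma adjusted p = 0.948). Sftpc ranged from 1291 to 5032 CPM, with a median of 3417 CPM, and had the highest log2 fold change of the 10, 0.21 (95% confidence interval −0.35 to 0.77, limma adjusted p = 0.81). The other genes lay between −0.23 and 0.17. The intervals leave room for changes of this size, and they do not show that the groups were equal.

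Of 9 known glucocorticoid targets, 0 passed the test for HDM + Dex vs. HDM. For HDM + Dex vs. saline 6 were lower (3 after rescaling), among them Tsc22d3 (−1.26), and for HDM vs. saline, without steroid, 7 were lower (3 after rescaling). Type 2 markers, lipid synthesis and trafficking each had 0 called for HDM + Dex vs. HDM, as deposited and after rescaling. Regulators of type 2 cells and genes of activated type 2 cells had 0 called as deposited. After rescaling, 1 of 12 regulators was higher and 1 of 10 activated type 2 genes lower, beside 2.85% of all genes called. Of the 10 ciliated cell markers, 6 rose as deposited, Ccdc113 by 1.58 and Dnah5 by 1.41, against 9 after rescaling and 2 relative to the other type 2 genes.

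Between HDM + Dex and saline lungs of aged mice, which share the saline group with the HDM comparison, limma again called 0 of the 10 genes, against 1.89% of all genes tested. The unadjusted p was under 0.05 for 1 of them as deposited (Sftpb) and for 2 on each of the other scales. Of the 17744 genes tested, 3766 were under 0.05 as deposited, 2805 after rescaling and 1810 relative to the other type 2 genes. Sftpb had a log2 fold change of −0.80 (SE 0.35, limma adjusted p = 0.197). Sftpd was at 0.36 (SE 0.24, limma adjusted p = 0.359), and at 0.58 after rescaling (limma adjusted p = 0.182). Relative to the other type 2 genes, Sftpb was at −0.72 (limma adjusted p = 0.149) and Sftpd at 0.44 (limma adjusted p = 0.399). In males alone (3 lungs per group), 3 of the 10 passed, against 12.4% of all genes: Sftpb (−1.76), Abca3 (−0.91) and Napsa (−0.85). Aged saline replicate 5, a male, was at 2855 CPM for Sftpb and 107 CPM for Napsa. Female means were not lower in HDM + Dex (n = 4) than in saline lungs (n = 2). They were 1103 and 907 CPM for Sftpb, 298 and 289 CPM for Abca3, and 71.1 and 43.6 CPM for Napsa. The difference between the sexes was not tested. Chil1 (1.53) was higher and Chka (−0.84), Chpt1 (−0.76), Prdx6 (−0.95) and Cebpd (−1.02) were lower in HDM + Dex than in saline lungs as deposited. The calls of Chpt1 (limma adjusted p = 0.0531) and Cebpd (limma adjusted p = 0.0608) were lost after rescaling. Relative to the other type 2 genes, the calls of both and that of Chka (limma adjusted p = 0.0993) were lost.

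The comparison of aged with adult saline lungs asked what differed with age before any challenge. Limma called 0 of the 10 genes, against 0.654% of all genes tested. The unadjusted p was under 0.05 for 0 of the 10, beside 1993 of the 17744 genes tested as deposited. Sftpd was at 106, 281, 343, 361 and 306 CPM in adult lungs, and Sftpb at 574, 1348, 1493, 1500 and 1041 CPM. Adult saline replicate 1 was the lowest of its group for both, and it had the highest 7SL share of the series, 42.0%. Log2 fold changes ran from −0.11 (Etv5) to 0.30 (Sftpa1), with limma adjusted p of at least 0.689. After rescaling, they ran from −0.32 (Etv5, limma adjusted p = 0.414) to 0.09 (Sftpa1), and 8 of 10 were below zero, against 1 of 10 as deposited. Etv5 was below zero and Sftpa1 and Sftpd above it on both scales. Relative to the other type 2 genes, they ran from −0.22 (Etv5) to 0.19 (Sftpa1). The 95% confidence interval of Sftpc as deposited, −0.84 to 0.87, was the widest of the 10.

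Within groups, the 10 genes varied together from lung to lung. After removal of the group means from log2(CPM + 1), the median Pearson r over the 45 pairs of genes was 0.80 (0.34 to 0.94, 24 lungs). All 10 genes of a lung share its library and its 7SL content, and after rescaling the median was 0.57. Relative to the 10 other type 2 genes it was 0.02, with a range of −0.71 to 0.80. On that scale Lpcat1, Slc34a2, Etv5 and Abca3 had positive r with each other, and negative r with Sftpa1 and Sftpc. Of 9659 genes whose mean reached 10 CPM, those most like the mean of the 10 over the 24 lungs were Dram1 (r = 0.94), Cldn18 (0.94), Lamb3 (0.94), Rnase4 (0.94) and Atp1b1 (0.93), and the same 5 genes led after rescaling. For Sftpc alone they were Sil1 (0.92), Serpinb6a (0.91), Egfl6 (0.91), Rnase4 (0.90) and Hsbp1 (0.90). This list changed after rescaling, to Scp2-ps2 (0.85), Egfl6 (0.84), Rnase4 (0.84), Dstn (0.83) and Chp1 (0.82).

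**Figure D5:**
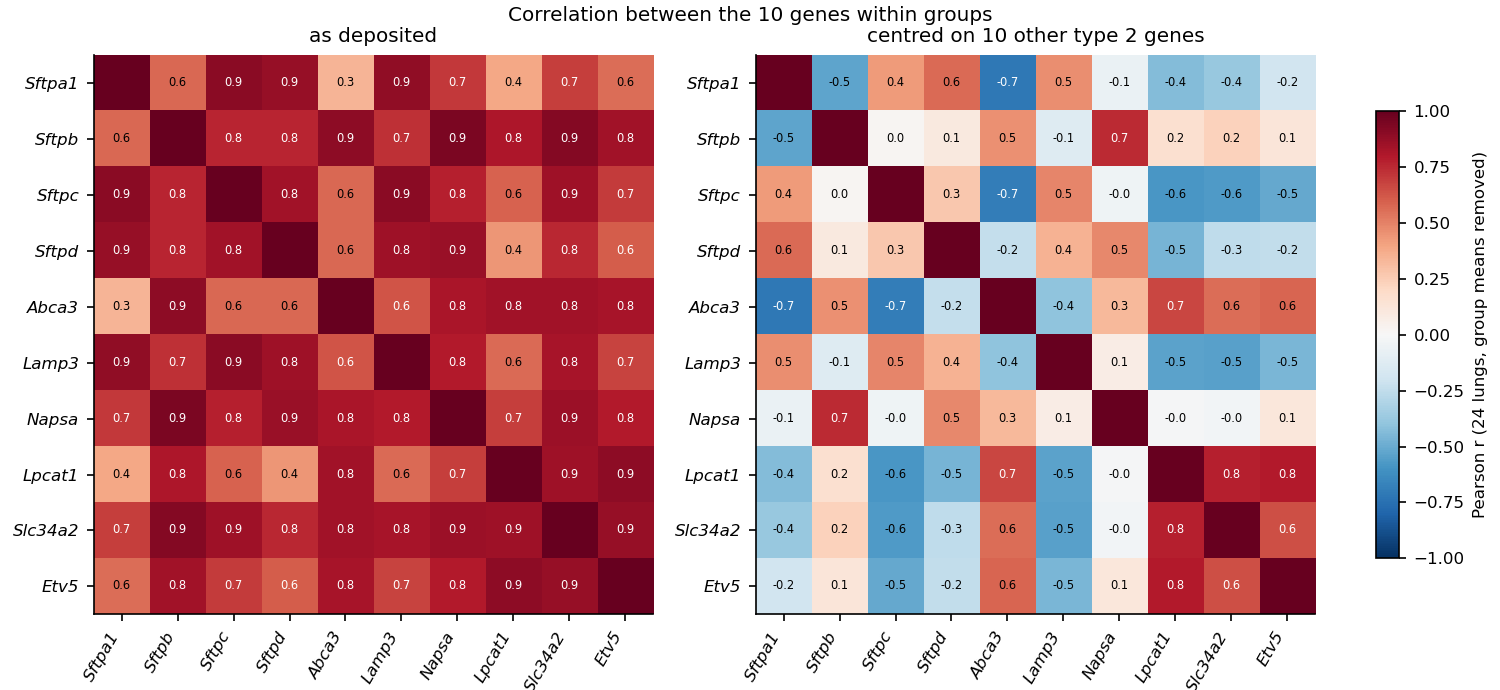
Pearson r between pairs of the 10 genes over 24 lungs after removal of group means (colour and printed value), for log2(CPM + 1) as deposited (left) and relative to 10 other type 2 genes (right). The left panel is positive throughout (0.34 to 0.94), and the right panel divides into positive and negative blocks (−0.71 to 0.80).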

How the data were processed

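Lung RNA of 24 mice in 4 groups was sequenced, and groups followed the sample labels. The authors' methods give a stranded mRNA kit, paired-end sequencing and a Picard-STAR-limma pipeline; per the labels, the submitters' processing notes list FastQC, STAR, DESeq2 and mm9. The authors deposited CPM with a constant of 0.0001 added to each value. The coordinates in the table matched GRCm38 (GENCODE M21), with 23142 of 23276 matched symbols at the same start, so positions are given on that build. Whether counting used strand was not given in the sources used here; Abca3, Napsa and Slc34a2 overlap other annotated genes.

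Depth was estimated from the spacing of low CPM values. Since 80.7% to 85.3% of them were whole multiples (within 0.05 of a step), counts were not recovered and count tests were not run. Counting intervals cover counting error only. From log2(CPM + 1) of 17744 genes whose mean reached 1 CPM, limma 3.58.1 (R 4.3.3) with trended eBayes and Benjamini-Hochberg adjustment gave each comparison, at an adjusted p under 0.05. The 3 aged groups shared 1 fit, and the saline groups another. The fits were checked on simulated data.

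The members and gene lists were chosen with earlier results of these data known. All 10 members are named. Of each other list, counts are given and at most 3 genes per direction with the largest fold changes past the threshold are named, together with the 5 genes most like the members' mean and most like Sftpc. A second deposited file, with no measurements, was not used. Alternatives were other pseudocounts, filters, scalings, sets of samples, variance models, covariates, a replicate block, a stricter threshold and leaving out each sample. Single-sex fits, rescaling with a sex covariate and rescaled fits without each sample were added after seeing the data.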

Additional observations from a re-analysis of the deposited data

Results flagged for a closer look

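In 7 of 44 groups of values (each of the 10 genes and their sum in 4 groups), 1 lung stood apart from the others of its group by Dixon's criterion. Independent groups would give about 2.2 by chance. These groups were not independent, since they share lungs, the genes varied together, and the sum contains the 10 genes. An excess over chance can therefore not be read from the count. Adult saline replicate 1, with the highest 7SL share of the series (42.0%), was the lowest of its group for Sftpa1 (565 CPM, others 1640 to 1864 CPM), Slc34a2 (540 CPM, others 978 to 1127 CPM) and the sum of the 10 genes (3529 CPM, others 9699 to 11515 CPM). Aged saline replicate 5 was the highest for Sftpb (2855 CPM, others 849 to 1341 CPM) and Sftpd (560 CPM, others 223 to 307 CPM). Aged HDM replicate 3 was the lowest for Sftpc (1405 CPM, others 2647 to 3302 CPM) and the sum (5223 CPM, others 7794 to 9381 CPM).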

How the results depend on the processing

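For HDM vs. saline, 1 of the 10 genes was called as reported. The count was 2 with quantile normalization (22.7% of all genes called) and 2 with the 2 groups compared only (24.8%). It was 3 with sample quality weights (44.4%), 3 with the replicate block (31.8%) and 2 with the 7SL share as a covariate (8.85%). It was 0 at an adjusted p under 0.01 (10.8%), 2 in males only (31.5%) and 0 in females only (0.0507%). Leaving out single lungs gave 0 to 2 over the 3 scalings. Sftpb was added without aged HDM replicate 6 or 7 or aged HDM + Dex replicate 1 (limma adjusted p = 0.0488, 0.0499 and 0.0471), and Sftpa1 after rescaling without aged saline replicate 5 (0.0465). Sftpd stayed higher in every alternative run, with log2 fold changes from 0.48 to 1.35. The replicate numbers did not pair the samples: same-numbered lungs of the 2 groups had r from −0.08 to 0.30, over 0.1 in 1 of 5 pairs, and the replicate block called Sftpb (−1.03) and Abca3 (−0.63) in addition. For HDM + Dex vs. HDM the count was 0 and reached 1 (0 to 1) without aged HDM replicate 2 relative to the other type 2 genes (Sftpd −0.70, limma adjusted p = 0.0244). For HDM + Dex vs. saline it was 0 (1.89% of all genes called), 2 with sample quality weights (30.8%) and 3 in males only (12.4%). For aged vs. adult it was 0 throughout. No called gene changed direction. Over all genes, HDM vs. saline called 717 higher and 3765 lower as deposited, 1930 and 2057 after rescaling, 1406 in all relative to the other type 2 genes, 7876 with quality weights, 1571 with the 7SL covariate and 9 in females only; HDM + Dex vs. HDM called 171 as deposited, 505 after rescaling, 8 with the block and 1 with the 2 groups only. The causes were not tested. Counting error was at most 5.58% of a value, below the spread between lungs.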
